A study of Homo sapiens with 24 samples.

Results

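Interferon-stimulated genes are the genes that cells switch on when interferons, or viral nucleic acid inside the cell, are sensed. A set of 43 of them, class I antigen presentation included, was followed through RNA sequencing of SW872, a human liposarcoma cell line. The set was given as a list of gene symbols, with no threshold on a measured value. It was chosen with earlier results of these data known, so its shares beside those of all genes describe the list. All 43 were found among the 60279 genes of the count tables, and all 43 were among the 19997 genes tested, those that averaged 5 counts or more per library.

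The study compared 2 gene fusions of epithelioid haemangioendothelioma, TAZ-CAMTA1 and YAP-TFE3, with the proteins they are built from, and 8 groups of 3 libraries were sequenced. EV carried the empty pBabeNeo retroviral vector, and TAZ-CAMTA1, YAP-TFE3 and TFE3 carried those proteins in it. TAZ4SA and YAP5SA carried TAZ and YAP with serines that the Hippo kinases phosphorylate changed to alanine, which keeps those co-activators active. These 6 groups were collected 48 h after reaching confluence. CAMTA1 was collected before confluence and was compared with EVsub, empty vector cells collected at the same state. Every group, controls included, was a pool of stably transduced cells selected with G418, and the methods describe the stable cells of a group as made in triplicate. Because each library came from a pool of cells, more cells that express a gene and more RNA per cell cannot be told apart in these values.

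Libraries held 19700277 to 35287476 counts (median 27383224), the members took 0.184% to 0.448% of them, and mitochondrial genes took 3.20% to 6.36%. Levels are given in CPM, a gene's count relative to the size of its library, with library sizes scaled by the trimmed mean of M values (TMM). Mesenchymal markers were abundant in every group (a sum of 2562 to 7903 CPM over 8 genes). Of 6 fat cell markers, 3 were at 0 in every EV library, ADIPOQ among them. The others held a summed level of 44.2 to 52.6 CPM in EV. The list was thus mixed and does not settle how far this liposarcoma line resembled fat cells. Leukocyte markers summed to 1.35 to 3.41 CPM over 6 genes in all libraries, with PTPRC, which defines leukocytes, at 0 or 1 count in each. The CAMTA1 gene stood at 144 ± 7.14 CPM (SD, n = 3) in TAZ-CAMTA1 and 21.4 ± 2.05 in EV, and TFE3 at 283 ± 49.6 in YAP-TFE3, 336 ± 19.3 in TFE3 and 119 ± 10.1 in EV. YAP1 was at 253 ± 4.99 in YAP5SA against 128 ± 12.5 in EV. WWTR1, the gene of TAZ, was lower in the libraries labelled TAZ4SA (134 ± 0.539 CPM) than in EV (204 ± 20.3). Its mean was also below EV in TAZ-CAMTA1 (181 ± 2.15), which carries part of TAZ, in YAP-TFE3 (126 ± 3.18) and in YAP5SA (68.7 ± 1.66). The TAZ4SA level thus lay above that of YAP5SA. The gene counts do not separate the cells' own transcript from that of a construct, so WWTR1 does not settle whether the label holds. Every direction drawn from the TAZ4SA libraries carries this limit, and TAZ4SA below stands for the libraries labelled so.

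Type I interferons bind a receptor whose kinases activate STAT2. With IRF9 it forms part of a complex that binds the interferon-stimulated response element, a repeat of GAAA letters in front of target genes. Interferon gamma acts through a different element, and IRF1 carries much of its effect on antigen presentation. Cytosolic RNA sensors can turn on many of the same genes through IRF3 and IRF7. The products block viral entry, translation and replication, or load peptides on class I molecules for display to T cells.

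Promoters are shown because this element is what many interferon-stimulated genes are known to share. RefSeq promoters of 300 bases (250 before to 50 after the start site, GRCh38.p14) were found for 35 of the 43 members. The core searched was GAAANNGAAA, on both strands with overlapping matches allowed. It was present in a promoter of 23 of these 35 genes (65.7%), against 1195 of all 27305 genes with a promoter (4.38%). The genes were listed as interferon-stimulated, so this describes the list and is no test. Against EV, the median log2 fold change in YAP-TFE3 was 0.42 for the 23 with the core and 0.525 for the 12 without. It was -0.41 and -0.27 in TAZ4SA, and -0.29 and -0.30 in YAP5SA. The part of the core in these changes was not tested. The capitals below mark each match. IFI27 and IFI6 are shown as members whose YAP-TFE3 libraries lay above all others, IFI44L and SAMD9 as the 2 called members farthest below EV in TAZ4SA, and SAMD9L as the neighbour of SAMD9.
IFI27, chr14:94110486-94110785 on the plus strand: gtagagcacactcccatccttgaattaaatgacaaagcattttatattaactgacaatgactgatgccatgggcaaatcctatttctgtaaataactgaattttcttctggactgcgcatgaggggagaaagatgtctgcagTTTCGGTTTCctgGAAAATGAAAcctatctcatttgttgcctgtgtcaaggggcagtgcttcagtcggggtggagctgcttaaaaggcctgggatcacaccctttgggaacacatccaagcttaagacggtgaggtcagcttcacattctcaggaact
IFI6, chr1:27672143-27672442 on the minus strand: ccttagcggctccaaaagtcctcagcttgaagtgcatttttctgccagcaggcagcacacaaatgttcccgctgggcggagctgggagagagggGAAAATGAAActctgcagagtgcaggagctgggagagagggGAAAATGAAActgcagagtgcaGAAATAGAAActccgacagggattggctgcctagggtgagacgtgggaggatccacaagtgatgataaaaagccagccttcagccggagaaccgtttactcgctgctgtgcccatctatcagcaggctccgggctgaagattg
IFI44L, chr1:78620198-78620497 on the plus strand: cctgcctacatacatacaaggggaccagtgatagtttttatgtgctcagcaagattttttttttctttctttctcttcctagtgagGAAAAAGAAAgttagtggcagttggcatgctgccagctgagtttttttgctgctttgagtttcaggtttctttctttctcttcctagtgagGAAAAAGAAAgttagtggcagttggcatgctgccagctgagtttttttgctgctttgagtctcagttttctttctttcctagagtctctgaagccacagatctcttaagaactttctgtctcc
SAMD9, chr7:93117930-93118229 on the minus strand: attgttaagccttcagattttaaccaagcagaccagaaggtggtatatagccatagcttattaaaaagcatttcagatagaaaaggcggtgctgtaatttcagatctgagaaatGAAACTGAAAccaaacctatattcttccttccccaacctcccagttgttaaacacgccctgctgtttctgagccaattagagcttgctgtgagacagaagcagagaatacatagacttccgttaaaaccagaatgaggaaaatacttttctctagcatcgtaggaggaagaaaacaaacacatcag
SAMD9L, chr7:93148336-93148635 on the minus strand: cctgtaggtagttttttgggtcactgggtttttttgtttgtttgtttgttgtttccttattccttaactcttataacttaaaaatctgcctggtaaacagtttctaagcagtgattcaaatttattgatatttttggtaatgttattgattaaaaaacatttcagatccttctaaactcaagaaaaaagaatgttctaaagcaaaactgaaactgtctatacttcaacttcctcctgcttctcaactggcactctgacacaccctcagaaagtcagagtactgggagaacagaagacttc
Counted from the start site, the matches began between bases -108 and -95 in IFI27, between -156 and -93 in IFI6, and between -164 and -73 in IFI44L. SAMD9 held 1 match, at -136, and the window of SAMD9L held none. The interferon gamma activated site, TTCNNNGAA, a palindrome, was present for 11 of the 35 members (31.4%) and 9.38% of all genes. GGAATG, the site of the TEAD factors through which YAP and TAZ act, was present for 8 members (22.9%) and 16.7% of all genes. CACGTG, an E-box that TFE3 binds, was present for 3 members (8.57%) and 8.77% of all genes. The members without a promoter here were IRF7, IFIT2, OAS2, OASL, MX2, USP18, TRIM22 and IFITM2.

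Per kilobase of exon, EV cells showed IFITM3 (194 CPM per kilobase), BST2 (182) and B2M (145) as the most abundant members, and IFI27 (0.429), MX1 (0.322), OASL (0.293), IFI44L (0.0728) and RSAD2 (0.0446) as the least abundant. The length was that of all annotated exons of a gene merged (17984 bases for MX1, 11610 for IFI44L), which lowers the rank of such genes. Members of the same family could differ widely before any construct was added. In counts per EV library, MX1 held 117 to 167 and MX2 4168 to 5671. Exons of 19 members overlap another gene, on the same strand for IRF9, DDX58, IFIT2, TRIM22, IFI6, IFITM1, IFITM2, HLA-B and PSMB9. Counts of these, of the related IFITM1, IFITM2 and IFITM3, and of the polymorphic HLA-B and HLA-C are uncertain. The way shared reads were assigned in these tables was not given in the sources used here.

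In YAP-TFE3 cells most of the members rose. Against EV, 25 of 43 were called higher (58.1%, where 25.6% of all tested genes were) and 3 lower (6.98%, against 22.6%), a call being an adjusted p under 0.05 in edgeR's quasi-likelihood test over all 19997 genes. The median log2 fold change of the members was 0.45 and that of all genes -0.01. In the activated parents the balance lay the other way. TAZ4SA had 3 members higher (background 25.1%) and 20 lower (24.2%), with a median of -0.41, and YAP5SA had 4 higher (22.7%) and 19 lower (21.6%), with a median of -0.36. TAZ-CAMTA1 had 1 higher (3.55%) and 0 lower (1.44%). TFE3 had 0 in either direction (backgrounds 0.035% and 0%). Marker sums moved as well. The 4 endothelial genes summed to 79.8 to 119 CPM in EV, 35.6 to 52.8 in YAP-TFE3, 31.6 to 51.96 in TAZ4SA and 13.2 to 18.2 in YAP5SA. The 8 mesenchymal genes summed to 5241 to 6110 CPM in EV, 4223 to 5830 in YAP-TFE3, 2662 to 3757 in TAZ4SA and 2562 to 4369 in YAP5SA. The 6 fat cell genes summed to 64.3 to 103.9 CPM in YAP-TFE3, above EV, and to 29.3 to 33.6 in TAZ4SA and 32.9 to 41 in YAP5SA, below it. FABP4, a lipid carrier of fat cells, went from 0 counts in each EV library to 23, 21 and 17 in YAP-TFE3, a small part of the summed level there. The part of these markers in the members' changes was not tested. These comparisons share the EV libraries, so their resemblance is not independent of them.

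**Figure D1:**
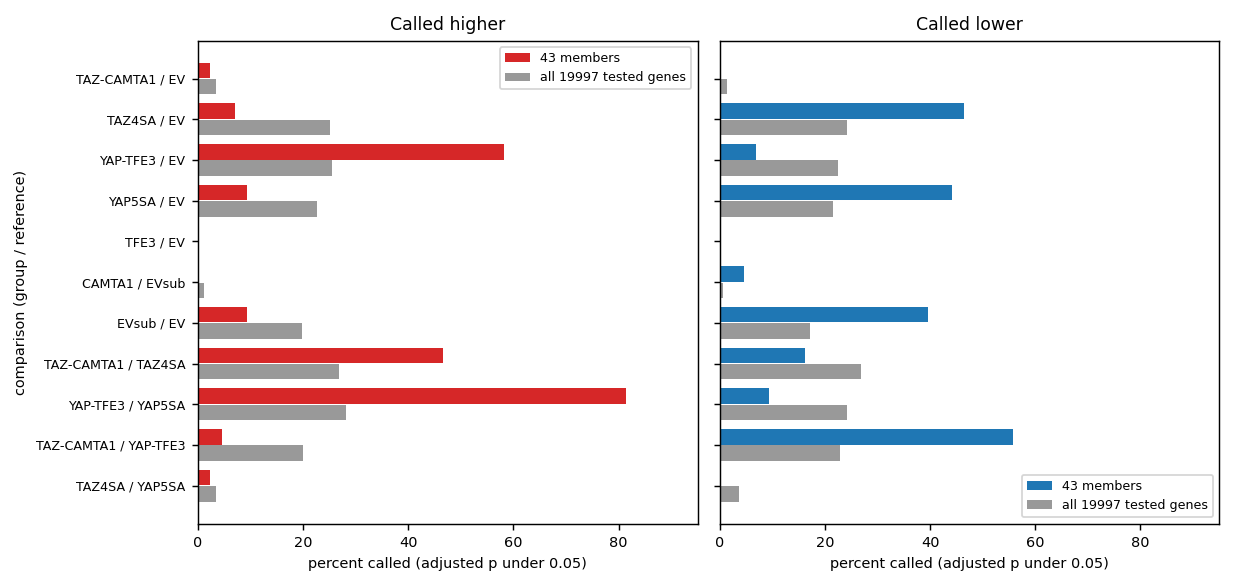
Share of the 43 members (coloured bars) and of all 19997 tested genes (grey bars) called higher (left) or lower (right) at an edgeR adjusted p under 0.05, in percent, for each of the 11 comparisons. The members exceed the background most in YAP-TFE3 against YAP5SA, where 81.4% were higher.

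IFI27 (gene body chr14:94104836-94116695, plus strand), which encodes a small hydrophobic protein, moved farthest. It stood at 1.52, 1.64 and 2.18 CPM in EV and at 22.3, 32.3 and 73.4 CPM in YAP-TFE3. It was at 1.71, 1.58 and 2.21 CPM in TAZ-CAMTA1, 1.04, 1.07 and 1.08 in TAZ4SA, 1.70, 1.43 and 1.29 in YAP5SA, 1.96, 1.30 and 2.44 in TFE3, 0.648, 0.811 and 0.568 in EVsub and 0.361, 0.595 and 0.835 in CAMTA1. Each YAP-TFE3 library lay far above all 21 others, and the third stood well above the other two. The log2 fold change against EV was 4.60 ± 0.33 (SE; edgeR adjusted p = 5.8e-11), and 3.96 without YAP-TFE3 replicate 3. IFI6 (chr1:27666064-27672212, minus strand), a mitochondrial protein that counters apoptosis, was at 22.5, 22.3 and 26.5 CPM in EV and 87.5, 114 and 199 CPM in YAP-TFE3 (log2 fold change 2.49 ± 0.24, edgeR adjusted p = 9.2e-09). Elsewhere it was at 33.3, 29.5 and 51.9 in TAZ-CAMTA1, 21.2, 19.1 and 22.5 in TAZ4SA, 23.2, 26.98 and 29.4 in YAP5SA, 25.9, 21.6 and 31.3 in TFE3, 12.1, 17.5 and 14.8 in EVsub and 9.03, 13.4 and 14.3 in CAMTA1. The YAP-TFE3 libraries did not overlap those of any other group, and the TAZ-CAMTA1 libraries lay next by their mean, all above EV but not past the test.

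The IFIT proteins, encoded side by side on chromosome 10, bind foreign RNA ends and block its translation. IFIT2 (chr10:89283694-89309271, plus strand) was at 27.9, 27.1 and 28.5 CPM in EV, 97.003, 83.7 and 105 in YAP-TFE3, 5.63, 5.97 and 7.68 in TAZ4SA and 9.45, 7.19 and 9.12 in YAP5SA. It was at 29.6, 33.7 and 33.5 in TAZ-CAMTA1, 29.6, 31.5 and 37.7 in TFE3, 30.3, 27.99 and 29.5 in EVsub and 14.1, 18.99 and 25.004 in CAMTA1. The gene thus took 3 separate ranges in confluent cells, high in YAP-TFE3 (1.77 ± 0.15 on the log2 scale against EV, edgeR adjusted p = 7.7e-10) and low in TAZ4SA (-2.11 ± 0.16, edgeR adjusted p = 2.0e-10) and YAP5SA (-1.69 ± 0.16, edgeR adjusted p = 6.0e-09). IFIT3 was at 27.8, 28.7 and 27.1 in EV, 98.2, 88.9 and 85.7 in YAP-TFE3, 13.2, 17.2 and 18.98 in TAZ4SA, 17.003, 15.9 and 19.8 in YAP5SA, 26.5, 31.7 and 27.3 in TAZ-CAMTA1, 29.2, 31.1 and 32.5 in TFE3, 40.2, 40.02 and 39.3 in EVsub and 26.9, 33.1 and 39.3 in CAMTA1. Like IFIT2 it was highest in YAP-TFE3 and lowest in TAZ4SA and YAP5SA, with a rise of 1.71 ± 0.12 in YAP-TFE3 (edgeR adjusted p = 6.9e-11) and smaller falls in TAZ4SA (-0.76) and YAP5SA (-0.66). IFIT1, their neighbour, was at 46.7, 44.1 and 38.4 in EV and 34.2, 32.2 and 63.5 in YAP-TFE3, where libraries lay on both sides of EV (log2 fold change 0.01 ± 0.17, edgeR adjusted p = 0.98). It fell to 11.9, 13.7 and 14.4 in TAZ4SA and 19.6, 20.8 and 15.6 in YAP5SA, and was at 49.8, 55.9 and 46.8 in TAZ-CAMTA1, 41.7, 48.2 and 45.7 in TFE3, 44.6, 48.8 and 40.95 in EVsub and 38.8, 46.6 and 50.9 in CAMTA1. IFIT1, IFIT2 and IFIT3 were thus called lower in both activated parents, and IFIT2 and IFIT3 but not IFIT1 were called higher in the fusion. IFIT5 rose by 0.45 in YAP-TFE3, was -0.71 in TAZ4SA, and was not called in YAP5SA (-0.29).

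The OAS proteins make oligoadenylates that activate RNase L, and OASL, which lacks that activity, assists RNA sensing. OASL was at 1.24, 2.48 and 1.84 CPM in EV and 7.93, 9.64 and 10.5 in YAP-TFE3 (log2 fold change 2.34 ± 0.23, edgeR adjusted p = 1.3e-08). It was at 0.603, 0.430 and 0.617 in TAZ4SA (-1.73 ± 0.31, edgeR adjusted p = 6.9e-05) and 0.803, 0.714 and 0.563 in YAP5SA (-1.42 ± 0.31, edgeR adjusted p = 0.00058). In the other groups it was at 2.24, 2.40 and 2.89 in TAZ-CAMTA1, 1.90, 1.14 and 2.02 in TFE3, 1.26, 1.17 and 1.11 in EVsub and 0.481, 1.03 and 1.08 in CAMTA1. EV and TAZ-CAMTA1 overlapped, and the activated parents lay below every EV library. OAS2 was at 46.99, 48.4 and 48.9 in EV, 56.3, 68.2 and 117 in YAP-TFE3, 30.6, 26.1 and 23.999 in TAZ4SA, 24.9, 24.9 and 20.5 in YAP5SA, 52.003, 50.3 and 45.8 in TAZ-CAMTA1, 52.9, 44.6 and 53.8 in TFE3, 36.96, 38.9 and 34.3 in EVsub and 37.7, 38.7 and 43.6 in CAMTA1. All YAP-TFE3 libraries exceeded EV (0.75 ± 0.17, edgeR adjusted p = 0.00066), but the third carried much of the size, and without it the value was 0.37. OAS1 and OAS3, in the same cluster on chromosome 12, were not called in YAP-TFE3 (0.17 and -0.33).

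Among sensors, IFIH1, which recognises long double-stranded RNA, was at 9.25, 7.13 and 8.92 CPM in EV and 21.6, 20.2 and 28.03 in YAP-TFE3 (1.47 ± 0.23, edgeR adjusted p = 1.2e-05). It was at 5.67, 5.46 and 10.6 in TAZ4SA, 5.53, 6.28 and 10.5 in YAP5SA, 9.97, 9.42 and 12.2 in TAZ-CAMTA1, 8.22, 11.7 and 13.6 in TFE3, 7.78, 8.16 and 6.73 in EVsub and 6.77, 8.34 and 8.50 in CAMTA1, so that YAP-TFE3 alone stood apart. DDX58 (RIGI in current annotation), the sensor of RNA with a triphosphate end, behaved otherwise. It was at 27.8, 26.6 and 27.3 in EV, 27.2, 25.8 and 24.9 in YAP-TFE3, 14.4, 15.98 and 18.3 in TAZ4SA, 12.6, 11.2 and 14.8 in YAP5SA, 25.4, 27.7 and 31.4 in TAZ-CAMTA1, 25.02, 27.8 and 36.3 in TFE3, 26.2, 25.7 and 25.8 in EVsub and 29.7, 32.98 and 32.2 in CAMTA1. Among the comparisons with EV it was called in the activated parents, with -0.75 ± 0.12 in TAZ4SA (edgeR adjusted p = 2.4e-05) and -1.08 ± 0.13 in YAP5SA (edgeR adjusted p = 1.7e-07), and their libraries lay below all others. DDX60, a related helicase, was at 20.2, 16.4 and 19.3 in EV, 30.2, 22.6 and 22.8 in YAP-TFE3, 7.59, 7.09 and 11.1 in TAZ4SA, 8.45, 8.28 and 12.2 in YAP5SA, 19.6, 19.2 and 24.6 in TAZ-CAMTA1, 14.8, 21.3 and 25.6 in TFE3, 23.8, 18.98 and 22.1 in EVsub and 21.2, 24.2 and 23.3 in CAMTA1. It fell in TAZ4SA (-1.11) and YAP5SA (-0.94).

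**Figure D2:**
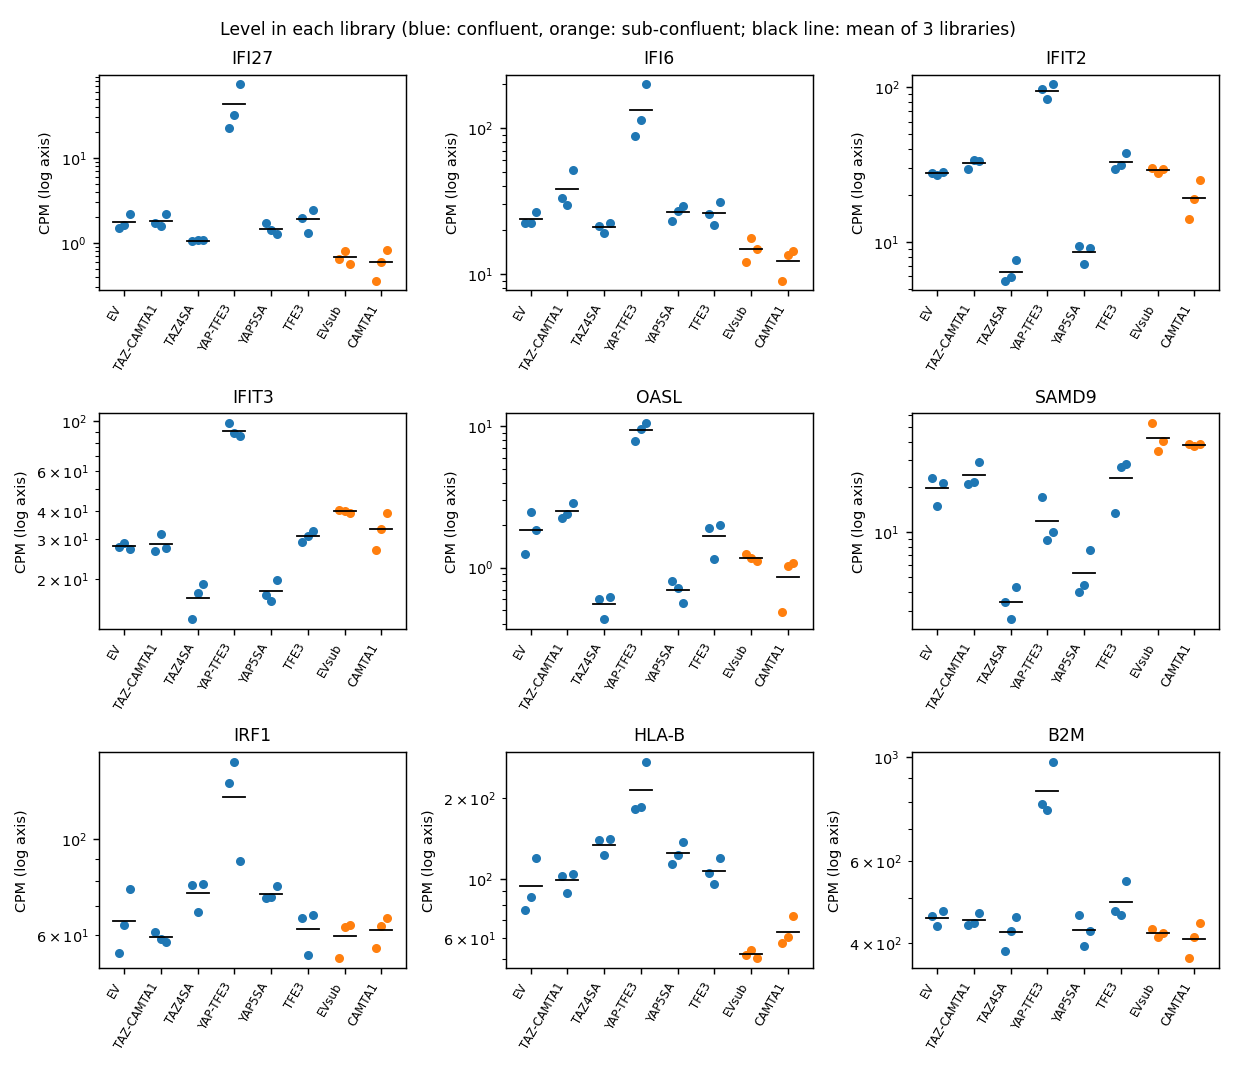
CPM (log axis) of 9 members in each of the 24 libraries, by group; points are libraries, blue for confluent and orange for sub-confluent cells, and the black line is the mean of 3. IFI27, IFI6, IFIT2, IFIT3 and OASL are highest in all 3 YAP-TFE3 libraries, and SAMD9 is highest in the sub-confluent groups.

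USP18, which strips ISG15 from proteins and restrains receptor signalling, was at 4.04, 4.57 and 4.70 CPM in EV, 7.09, 6.47 and 6.28 in TAZ-CAMTA1 and 13.2, 14.1 and 16.98 in YAP-TFE3. Both fusions lay above every EV library, by 1.74 ± 0.14 in YAP-TFE3 (edgeR adjusted p = 3.5e-10) and 0.58 ± 0.14 in TAZ-CAMTA1 (edgeR adjusted p = 0.016), the latter being the 1 call of that comparison. The remaining groups were at 4.42, 4.38 and 3.90 in TAZ4SA, 3.97, 5.04 and 3.46 in YAP5SA, 4.65, 4.64 and 4.46 in TFE3, 3.51, 3.56 and 4.46 in EVsub and 2.86, 3.51 and 3.44 in CAMTA1. The TAZ-CAMTA1 call was lost without EV replicate 1 (0.51), EV replicate 2 or TAZ-CAMTA1 replicate 1, over a range of 0.51 to 0.62. ISG15, the ubiquitin-like modifier itself, was at 13.5, 15.7 and 14.3 in EV and 22.3, 27.2 and 28.4 in YAP-TFE3 (0.84 ± 0.15, edgeR adjusted p = 3.9e-05), with no overlap. It was at 12.8, 12.4 and 12.2 in TAZ-CAMTA1, 17.4, 15.3 and 15.6 in TAZ4SA, 10.3, 15.3 and 11.5 in YAP5SA, 16.8, 13.8 and 15.4 in TFE3, 9.73, 11.5 and 12.7 in EVsub and 8.06, 8.44 and 11.9 in CAMTA1. HERC5, the ligase that attaches ISG15, was lower in YAP-TFE3 (log2 fold change -0.63), and HERC6, a close relative of unsettled role, was lower in TAZ4SA (-0.66) and YAP5SA (-0.59).

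RSAD2, whose product viperin makes a chain-terminating nucleotide, was at the lower edge of detection. It was at 0.173, 0.343 and 0.242 CPM in EV and 1.63, 2.01 and 2.31 CPM in YAP-TFE3, where the 3 libraries together held 194 counts against 19 in EV (2.96 ± 0.37 on the log2 scale, edgeR adjusted p = 5.5e-07). It was at 0.227, 0.103 and 0.400 in TAZ-CAMTA1, 0.0402, 0.129 and 0.154 in TAZ4SA, 0.142, 0.0476 and 0.0804 in YAP5SA, 0.205, 0.0603 and 0.260 in TFE3, 0.0381, 0 and 0 in EVsub and 0.0301, 0.0331 and 0 in CAMTA1. The YAP-TFE3 libraries did not overlap any other. YAP5SA held 6 counts in all, so YAP-TFE3 was 22.3-fold higher with a 95% exact interval of 10.1 to 61.6, which covers counting error only. IFI44L, of unknown biochemical role, was at 0.725, 0.648 and 1.16 in EV, 1.46, 1.92 and 5.61 in YAP-TFE3, 0, 0.0430 and 0.309 in TAZ4SA, 0.236, 0.143 and 0.0804 in YAP5SA, 0.303, 0.411 and 0.677 in TAZ-CAMTA1, 0.643, 1.02 and 1.14 in TFE3, 0.114, 0.225 and 0.0284 in EVsub and 0, 0.0331 and 0.147 in CAMTA1. It rose in YAP-TFE3 (1.86 ± 0.47, edgeR adjusted p = 0.002), by 1.03 without YAP-TFE3 replicate 3, and fell in TAZ4SA (-2.73 ± 0.78, edgeR adjusted p = 0.0057), by 5.04 without TAZ4SA replicate 3. The YAP5SA fall (-2.43) was no longer called without YAP5SA replicate 3, over a range of -2.87 to -2.10. IFI44, its neighbour on chromosome 1, was at 6.28, 5.87 and 6.93 in EV, 6.83, 5.94 and 10.7 in YAP-TFE3, 1.41, 1.59 and 2.28 in TAZ4SA, 1.51, 1.24 and 2.25 in YAP5SA, 5.72, 4.83 and 6.80 in TAZ-CAMTA1, 5.47, 7.41 and 9.73 in TFE3, 4.54, 5.54 and 3.89 in EVsub and 3.16, 3.61 and 5.16 in CAMTA1. It fell in TAZ4SA (-1.85 ± 0.27, edgeR adjusted p = 5.7e-06) and YAP5SA (-1.91 ± 0.28, edgeR adjusted p = 5.1e-06) and was not called in YAP-TFE3.

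SAMD9 (chr7:93099513-93118023, minus strand) and SAMD9L, antiviral factors that also slow growth, lie side by side on chromosome 7. SAMD9 was at 23.03, 15.01 and 21.3 CPM in EV, 3.42, 2.62 and 4.28 in TAZ4SA, 3.97, 4.47 and 7.60 in YAP5SA and 17.01, 8.79 and 9.98 in YAP-TFE3. It was at 20.8, 21.5 and 29.2 in TAZ-CAMTA1, 13.4, 27.1 and 28.3 in TFE3, 53.02, 34.4 and 40.3 in EVsub and 38.4, 37.2 and 38.7 in CAMTA1. Its falls in TAZ4SA (-2.52 ± 0.30, edgeR adjusted p = 2.9e-07) and YAP5SA (-1.87 ± 0.29, edgeR adjusted p = 1.2e-05) were among the largest of the set. The fall in YAP-TFE3 (-0.73 ± 0.27, edgeR adjusted p = 0.027) overlapped EV and was lost without EV replicate 1, EV replicate 3, YAP-TFE3 replicate 2 or YAP-TFE3 replicate 3, over -1.07 to -0.56. SAMD9L was at 24.3, 20.1 and 25.4 in EV, 5.06, 3.78 and 6.60 in TAZ4SA, 6.66, 4.38 and 10.4 in YAP5SA, 52.6, 30.6 and 26.99 in YAP-TFE3, 28.8, 32.3 and 43.2 in TAZ-CAMTA1, 19.1, 30.6 and 38.1 in TFE3, 44.4, 32.5 and 34.8 in EVsub and 27.8, 34.04 and 29.4 in CAMTA1. It fell with SAMD9 in TAZ4SA (-2.17) and YAP5SA (-1.69) but lay on the other side of EV in YAP-TFE3 (0.66 ± 0.26, edgeR adjusted p = 0.041). That last call was lost without any 1 of the EV libraries or without YAP-TFE3 replicate 1, over 0.31 to 0.84, and also under total-count scaling and in DESeq2.

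TRIM22, a ubiquitin ligase, was at 14.5, 14.1 and 13.8 CPM in EV, 17.2, 18.4 and 30.6 in YAP-TFE3, 6.39, 6.10 and 7.02 in TAZ4SA, 8.88, 9.99 and 9.73 in YAP5SA, 19.4, 20.3 and 17.7 in TAZ-CAMTA1, 16.8, 15.7 and 21.2 in TFE3, 10.4, 11.4 and 9.997 in EVsub and 9.96, 13.001 and 13.2 in CAMTA1. YAP-TFE3 and the activated parents lay on opposite sides of EV without overlap (log2 fold changes 0.64, -1.12 and -0.57, each called). The third YAP-TFE3 library carried much of the rise, and without it the value was 0.33, still called. XAF1, which promotes apoptosis, was at 14.2, 12.8 and 16.5 in EV, 23.7, 21.04 and 18.3 in YAP-TFE3, 6.87, 7.43 and 7.95 in TAZ4SA, 5.81, 5.52 and 8.04 in YAP5SA, 10.8, 12.8 and 14.2 in TAZ-CAMTA1, 11.5, 14.7 and 17.6 in TFE3, 11.8, 8.79 and 10.5 in EVsub and 9.78, 12.5 and 11.1 in CAMTA1. It had the same order, at 0.54, -0.96 and -1.16. MX2, a GTPase that blocks retroviruses, rose by 0.70 in YAP-TFE3, and MX1, its paralogue against RNA viruses, was not called there (0.32).

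The factors that carry the signal did not move as one. STAT2 was at 73.7, 83.4 and 94.1 CPM in EV and 112, 119 and 127 in YAP-TFE3 (0.51 ± 0.09, edgeR adjusted p = 6.9e-05). It was at 108, 105 and 98.99 in YAP5SA, 89.97, 83.7 and 85.7 in TAZ4SA, 95.6, 85.1 and 89.3 in TAZ-CAMTA1, 92.7, 74.7 and 97.8 in TFE3, 56.6, 61.6 and 56.5 in EVsub and 56.5, 57.6 and 57.9 in CAMTA1. The YAP-TFE3 libraries were the highest of all and the sub-confluent ones the lowest. IRF9, its DNA-binding partner, was at 2.97, 4.08 and 4.36 in EV, 2.83, 2.48 and 3.15 in YAP-TFE3, 2.37, 1.55 and 1.77 in TAZ4SA, 2.13, 1.95 and 2.09 in YAP5SA, 3.37, 3.12 and 3.66 in TAZ-CAMTA1, 4.12, 3.92 and 5.40 in TFE3, 2.59, 2.07 and 1.90 in EVsub and 2.17, 2.22 and 1.62 in CAMTA1. It fell in TAZ4SA (-0.99 ± 0.20, edgeR adjusted p = 0.00019) and YAP5SA (-0.88 ± 0.20, edgeR adjusted p = 0.00079), and in YAP-TFE3 it was not higher than EV (-0.42 ± 0.18, edgeR adjusted p = 0.061).

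IRF1 was at 54.6, 63.3 and 76.6 CPM in EV and 135, 150.1 and 88.8 in YAP-TFE3, all 3 above EV (0.94 ± 0.14, edgeR adjusted p = 6.0e-06). It was at 78.2, 67.97 and 78.9 in TAZ4SA, 73.02, 73.6 and 78.1 in YAP5SA, 60.99, 59.1 and 58.1 in TAZ-CAMTA1, 65.9, 54.02 and 66.7 in TFE3, 53.2, 62.7 and 63.6 in EVsub and 56.3, 63.2 and 65.97 in CAMTA1. Here YAP-TFE3 replicate 3 was the lowest of its group, where for IFI27 it was the highest. IRF7, which drives interferon genes, was at 11.9, 14.4 and 18.1 in EV, 12.7, 16.7 and 17.7 in YAP-TFE3, 12.8, 14.01 and 16.1 in TAZ4SA, 9.07, 12.8 and 11.6 in YAP5SA, 11.8, 12.4 and 16.2 in TAZ-CAMTA1, 16.1, 13.1 and 16.3 in TFE3, 6.37, 7.89 and 7.01 in EVsub and 4.66, 5.66 and 7.47 in CAMTA1. Confluent groups overlapped EV, and IRF7 was called only in EVsub among the EV comparisons (-1.06 ± 0.18, edgeR adjusted p = 0.00013).

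Class I presentation rose in YAP-TFE3 in 4 of 5 members and fell in 1. HLA-B (chr6:31353872-31367067, minus strand), a peptide-presenting chain, was at 76.5, 85.4 and 119.9 CPM in EV and 183, 187 and 274 in YAP-TFE3 (1.19 ± 0.15, edgeR adjusted p = 5.4e-07). It was at 139, 122 and 141 in TAZ4SA, 113, 123 and 138 in YAP5SA, 102, 88.6 and 105 in TAZ-CAMTA1, 105, 95.9 and 120.0 in TFE3, 51.9, 54.3 and 50.3 in EVsub and 57.2, 60.3 and 72.6 in CAMTA1, and so ordered YAP-TFE3 highest and EVsub lowest. B2M (chr15:44711358-44718851, plus strand), the light chain every class I molecule needs, was at 457, 436 and 468 in EV and 795, 771 and 975 in YAP-TFE3 (0.90 ± 0.09, edgeR adjusted p = 2.8e-08). It was at 386, 424 and 455 in TAZ4SA, 459, 395 and 425 in YAP5SA, 438, 441 and 465 in TAZ-CAMTA1, 468, 460.4 and 543 in TFE3, 429, 412 and 421 in EVsub and 371, 413 and 443 in CAMTA1, and among the comparisons with a vector control it was called in YAP-TFE3 only. HLA-C rose by 0.91. PSMB9, an immunoproteasome subunit, fell (-0.39 ± 0.10, edgeR adjusted p = 0.0023). TAP1, the peptide transporter, was higher by 0.30, a call lost without EV replicate 1, EV replicate 2, YAP-TFE3 replicate 2 or YAP-TFE3 replicate 3 (0.19 to 0.43).

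IFI35 was higher in YAP-TFE3 (0.69), and PARP9, the partner of PARP14, was lower in TAZ4SA (-0.70) and YAP5SA (-0.68). BST2, which tethers budding virus to the cell surface, was lower in TAZ4SA (-0.41). PARP14 (0.42), an ADP-ribosyltransferase, was lost as a call in YAP-TFE3 without EV replicate 2 or YAP-TFE3 replicate 3 (0.37 to 0.47). IFITM3 (0.43), which blocks viral entry, was lost without EV replicate 1 or YAP-TFE3 replicate 3 (0.30 to 0.56). When each library of the 2 groups was left out in turn, 22 to 26 members were called higher, with 24 when YAP-TFE3 replicate 3 was left out. YAP-TFE3 replicate 3 held the highest value of its group for 31 of 43 members. The third library was the highest of its group for 26 members in EV, 26 in TAZ4SA, 32 in TFE3, 29 in CAMTA1, 20 in TAZ-CAMTA1, 15 in YAP5SA and 8 in EVsub. A fit with the replicate number as a block called 26 members higher and 3 lower in YAP-TFE3.

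**Figure D3:**
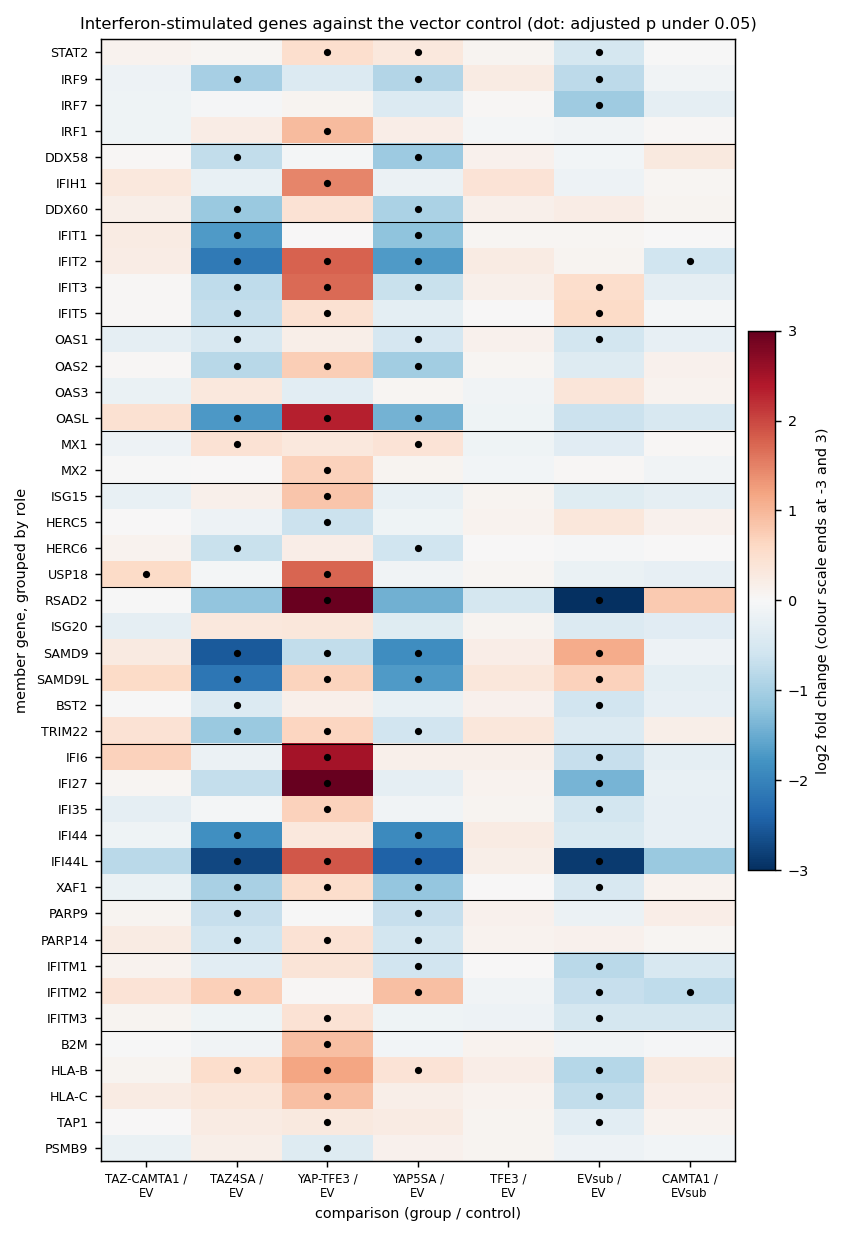
Log2 fold change of each member (rows, grouped by role) in the 7 comparisons with an empty vector control (columns); red is higher and blue lower than the control, the colour scale ends at -3 and 3, and a dot marks an edgeR adjusted p under 0.05. The YAP-TFE3 column is mostly red (25 calls higher), the TAZ4SA and YAP5SA columns mostly blue (20 and 19 calls lower), and the TFE3 column holds no dot.

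The members called higher in the activated parents were few. IFITM2, another barrier to viral entry, rose in TAZ4SA (0.72 ± 0.17, edgeR adjusted p = 0.0013) and YAP5SA (0.91 ± 0.17, edgeR adjusted p = 0.00013), while IFITM1, encoded beside it, was -0.33 and -0.58. The YAP5SA call of IFITM1 was lost without EV replicate 3 or any 1 YAP5SA library (-0.70 to -0.34). MX1 was higher in TAZ4SA (0.44) and YAP5SA (0.42), and these calls were lost without EV replicate 1 (ranges 0.38 to 0.51 and 0.30 to 0.49) or without replicate 1 of TAZ4SA or YAP5SA respectively. HLA-B was higher in TAZ4SA (0.52, lost without EV replicate 1, 0.39 to 0.73) and YAP5SA (0.41, lost without EV replicate 1, EV replicate 2, YAP5SA replicate 2 or YAP5SA replicate 3, 0.28 to 0.62). STAT2 was higher in YAP5SA (0.31), a call lost without EV replicate 1 (0.23 to 0.40). Under total-count scaling, which moved the median of all genes by -0.198 in TAZ4SA and -0.185 in YAP5SA, IFITM2 was the 1 member still higher in each, with 23 and 26 members lower. Of all 19997 genes, that scaling called 3355 higher and 7317 lower in TAZ4SA, and 3134 and 6842 in YAP5SA. OAS1 was lower in both TAZ4SA (-0.48) and YAP5SA (-0.49), calls lost without EV replicate 2, EV replicate 3, or replicate 2 or 3 of the group concerned (-0.61 to -0.39 and -0.57 to -0.42).

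The 2 activated parents were also set against each other. Members were called higher in TAZ4SA in 1 case (background 3.53%) and lower in 0 (3.64%), and DESeq2 called 2 lower. At an unadjusted p under 0.05, 3 members were higher and 5 lower, beside 3684 of all 19997 genes in either direction. The edgeR call was ISG20, an RNA exonuclease, at 10.4, 9.28 and 7.41 CPM in TAZ4SA and 6.33, 6.47 and 4.26 in YAP5SA (0.67 ± 0.20, edgeR adjusted p = 0.042). It was lost without TAZ4SA replicate 1, TAZ4SA replicate 2, YAP5SA replicate 1 or YAP5SA replicate 3 (0.50 to 0.80).

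Each fusion was compared directly with the activated form of its N-terminal parent, which uses no EV library. YAP-TFE3 exceeded YAP5SA in 35 members (background 28.1%) and lay below it in 4 (24.3%), with a median log2 fold change of 0.95 against 0.05 for all genes. The largest differences were IFI27 (4.86 ± 0.34, edgeR adjusted p = 3.2e-11; 4.22 without YAP-TFE3 replicate 3), RSAD2 (4.41), IFI44L (4.29; 3.46 without YAP-TFE3 replicate 3), OASL (3.76 ± 0.27, edgeR adjusted p = 4.5e-11), IFIT2 (3.47 ± 0.16, edgeR adjusted p = 3.0e-14), IFIT3 (2.37), SAMD9L (2.35) and IFI6 (2.33). All 4 IFIT genes, all 3 sensors and all 6 of the IFI genes and XAF1 were higher. The members below YAP5SA were IFITM2 (-0.89), PSMB9 (-0.51), HERC5 (-0.50) and OAS3 (-0.40). HERC5 was lost without YAP5SA replicate 3, YAP-TFE3 replicate 1 or YAP-TFE3 replicate 2 (-0.78 to -0.38), and OAS3 without any 1 library of the 2 groups other than YAP-TFE3 replicate 3 (-0.81 to -0.18). Of the higher calls, OAS1 and BST2 were lost without YAP-TFE3 replicate 3 (0.29 and 0.16), and IRF7 without YAP5SA replicate 1, YAP-TFE3 replicate 2 or YAP-TFE3 replicate 3 (0.36 to 0.62).

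TAZ-CAMTA1 exceeded the libraries labelled TAZ4SA in 20 members (background 26.9%) and lay below them in 7 (26.8%), with a median of 0.64 against 0.03 for all genes. SAMD9 (2.79 ± 0.30, edgeR adjusted p = 5.3e-08), SAMD9L (2.75 ± 0.29, edgeR adjusted p = 4.0e-08), IFIT2 (2.33 ± 0.16, edgeR adjusted p = 3.9e-11), OASL (2.18), IFIT1 (1.93), IFI44 (1.71), TRIM22 (1.55) and DDX60 (1.30) were the called members that differed most. The lower members were MX1 (-0.59), ISG20 (-0.57), OAS3 (-0.50), HLA-B (-0.45), ISG15 (-0.37), PSMB9 (-0.36) and IRF1 (-0.34). Total-count scaling left 1 of these 7 called, with 29 members higher, beside 7486 of all 19997 genes higher and 3695 lower. IRF1 and ISG15 were lost without TAZ4SA replicate 1 or 3 or any 1 TAZ-CAMTA1 library (-0.40 to -0.30 and -0.40 to -0.31), ISG20 without TAZ4SA replicate 1 or TAZ-CAMTA1 replicate 3 (-0.70 to -0.43), and HLA-B without TAZ-CAMTA1 replicate 2 (-0.38). With the replicate block, IRF1 was not called either.

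**Figure D4:**
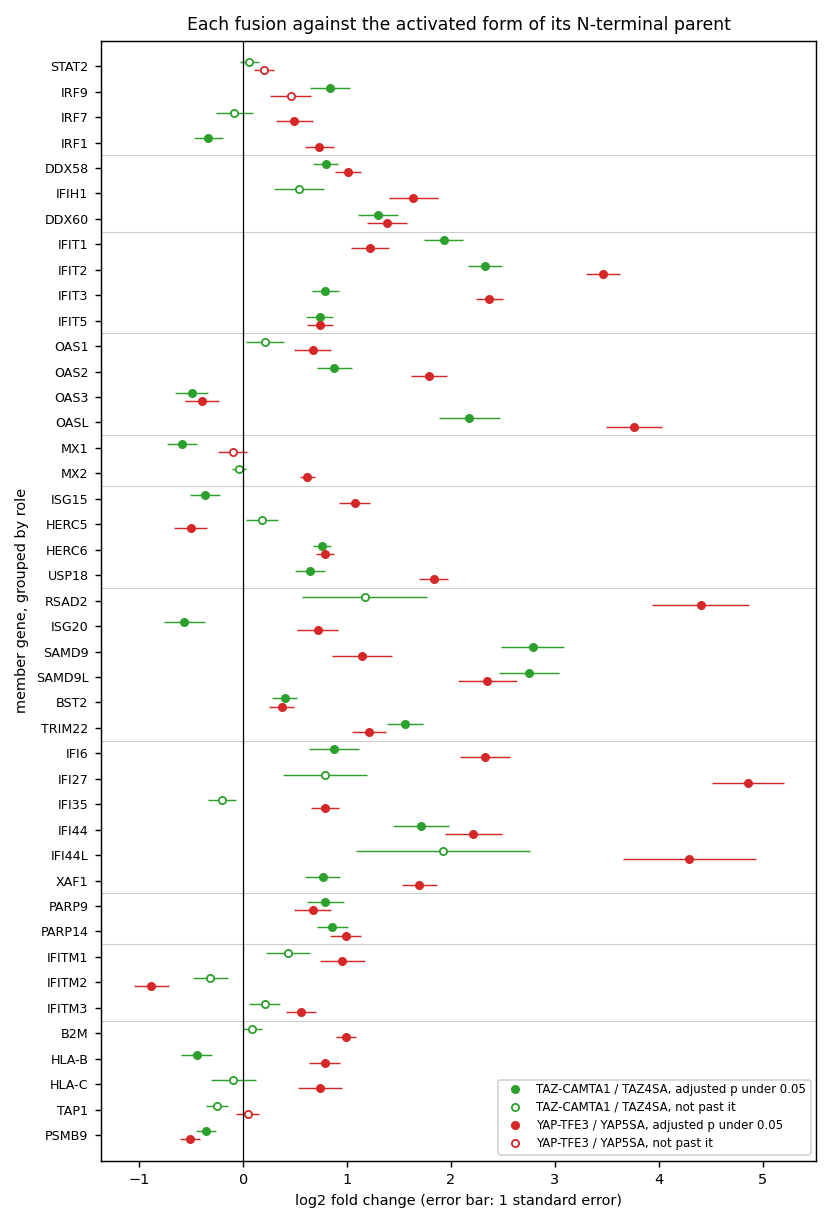
Log2 fold change of each member, with 1 standard error, in TAZ-CAMTA1 against TAZ4SA (green) and YAP-TFE3 against YAP5SA (red); filled points passed an edgeR adjusted p of 0.05 and open points did not. In YAP-TFE3 against YAP5SA 35 members lie to the right of 0 with filled points, and in TAZ-CAMTA1 against TAZ4SA 20 do.

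Between the fusions, TAZ-CAMTA1 was higher than YAP-TFE3 in 2 members (background 19.9%) and lower in 24 (22.8%), with a median of -0.44 against 0.01 for all genes. IFI27 (-4.53 ± 0.33, edgeR adjusted p = 8.9e-11; -3.89 without YAP-TFE3 replicate 3), RSAD2 (-2.98; -3.58 without TAZ-CAMTA1 replicate 3), IFI44L (-2.66; -1.83 without YAP-TFE3 replicate 3), OASL (-1.90), IFI6 (-1.80), IFIT3 (-1.67), IFIT2 (-1.56) and USP18 (-1.16) were the farthest below. SAMD9 (1.00 ± 0.27, edgeR adjusted p = 0.0037) and HERC5 (0.65 ± 0.16, edgeR adjusted p = 0.0017) were the 2 above. OAS1 (-0.45) rested on YAP-TFE3 replicate 3, without which it was -0.07. It was also lost without TAZ-CAMTA1 replicate 2 or 3 and with the replicate block, over -0.65 to -0.07. IFIT5 was lost without YAP-TFE3 replicate 1 (-0.29), MX1 without YAP-TFE3 replicate 2 (-0.31) and ISG20 without TAZ-CAMTA1 replicate 3 (-0.47) or YAP-TFE3 replicate 2. HLA-C was lost without TAZ-CAMTA1 replicate 2 or 3 or YAP-TFE3 replicate 3 (-0.89 to -0.49), and TAP1 without replicate 2 or 3 of either fusion (-0.38 to -0.22).

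The C-terminal parents on their own moved few members, and few of all 19997 tested genes. In TFE3 against EV, edgeR called 0 of 43 members (backgrounds 0.035% higher and 0% lower) and so did DESeq2. An unadjusted p under 0.05 was held by 1 member (TRIM22, 0.34 ± 0.16, named after its value was seen) and by 757 of all genes. In CAMTA1 against EVsub, 1 member was higher and 5 were lower at an unadjusted p under 0.05, beside 2474 of all genes in either direction. After adjustment, 0 members were called higher (background 1.26%, 0 in DESeq2) and 2 lower (0.57%). These were IFITM2, at 19.6, 24.97 and 19.6 CPM in EVsub and 10.2, 12.6 and 15.5 in CAMTA1 (-0.75 ± 0.18, edgeR adjusted p = 0.027), and IFIT2 (-0.61 ± 0.15, edgeR adjusted p = 0.034). IFITM2 was lost without CAMTA1 replicate 1, CAMTA1 replicate 2 or EVsub replicate 2 (-0.91 to -0.61), and IFIT2 without any 1 library of the 2 groups other than CAMTA1 replicate 3 (-0.83 to -0.42). In TAZ-CAMTA1 against EV, 5 members were higher and 0 lower at an unadjusted p under 0.05, beside 3574 of all 19997 genes in either direction. DESeq2 called 1 member higher and 0 lower there.

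Empty vector cells were also compared between the sub-confluent and the confluent state. EVsub was higher than EV in 4 members (background 19.8%) and lower in 17 (17.1%), with a median of -0.36 against -0.02 for all genes. The higher ones were SAMD9 (1.11 ± 0.26, edgeR adjusted p = 0.002), SAMD9L (0.68), IFIT5 (0.57 ± 0.12, edgeR adjusted p = 0.001) and IFIT3 (0.52 ± 0.12, edgeR adjusted p = 0.0023). SAMD9L was lost without any 1 EV library, EVsub replicate 1 or EVsub replicate 3 (0.54 to 0.77). RSAD2 held 1 count over the 3 EVsub libraries against 19 in EV, a ratio of 20.9-fold lower with an exact 95% interval of 3.33 to 871, for counting error only. The fitted log2 difference was -3.96, and -5.83 without EVsub replicate 1, which held that count. IFI44L (-2.87; -3.57 without EVsub replicate 2), IFI27 (-1.40), IRF7, HLA-B (-0.85 ± 0.15, edgeR adjusted p = 0.00017), IFITM1 (-0.81), IRF9 (-0.79) and HLA-C (-0.74) followed. All 3 IFITM genes were lower. Without EV replicate 3 the set fell to 12 calls, 9 of them lower. IFITM1 (-0.58), IFITM3 (-0.39), IFI27 (-1.25), HLA-C (-0.55), TAP1 (-0.19), XAF1, IFI6 and OAS1 were among those lost. IFI27 was also lost without EVsub replicate 3, HLA-C and TAP1 without EVsub replicate 1, and XAF1 without EVsub replicate 2 or 3 (-0.58 to -0.37). IFI6 was lost without EVsub replicate 1 or 3 as well (-0.81 to -0.56), and OAS1 without EV replicate 2 or EVsub replicate 1 or 3 (-0.62 to -0.50).

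Interferon genes themselves were hardly detected. IFNB1 held 7, 3 and 5 counts in the YAP-TFE3 libraries, 0, 1 and 0 in EV, and at most 3 in any other library. IFNG, IFNA2 and IFNK were at 0 counts in EV and YAP-TFE3, IFNA1 held at most 1 count in any library, and IFNE, an interferon of epithelia, held 6, 3 and 3 counts in EV, 3, 0 and 1 in YAP-TFE3 and at most 11 in any library. None of these was tested. Of 10 tested receptors, kinases and STATs, 6 were higher and 1 lower in YAP-TFE3, among them IFNGR1 (0.64) and IL10RB (0.60). Of 11 tested genes of nucleic acid sensing, 4 were higher and 1 lower in YAP-TFE3. In TAZ4SA 5 were higher and 4 lower, and in YAP5SA 4 and 4. TLR3, the endosomal receptor for double-stranded RNA, was 0.67 in YAP-TFE3, -2.02 in TAZ4SA and -1.52 in YAP5SA, and TBK1, the kinase that activates IRF3, was 0.82, -1.08 and -0.80, all called. These list counts stand beside backgrounds of 25.6% higher and 22.6% lower in YAP-TFE3, 25.1% and 24.2% in TAZ4SA, and 22.7% and 21.6% in YAP5SA. Negative regulators were mixed, with 2 higher and 3 lower of 9 in YAP-TFE3, 4 and 4 in TAZ4SA, and 4 and 2 in YAP5SA. Further interferon-stimulated genes outside the 43 numbered 11 higher and 6 lower of 31 tested in YAP-TFE3, 5 and 11 in TAZ4SA and 4 and 13 in YAP5SA, beside the same backgrounds. APOL1, which encodes an apolipoprotein, was the farthest above EV in YAP-TFE3 (2.70 ± 0.12, edgeR adjusted p = 1.5e-14), and TNFSF10, the death ligand TRAIL, was the farthest below it in TAZ4SA (-1.91) and YAP5SA (-2.19).

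Class I genes beyond the members were 7 higher and 1 lower of 15 tested in YAP-TFE3, with HLA-F (1.73 ± 0.17, edgeR adjusted p = 7.3e-09) and HLA-E (0.94 ± 0.13, edgeR adjusted p = 2.2e-06) leading. In YAP5SA 2 were higher and 6 lower, and in TAZ4SA 3 and 4. TAP2, the partner of TAP1, held 0 to 6 counts in every library and was not tested. Of 7 tested class II genes, which present peptides to helper T cells, 4 were higher and 0 lower in YAP-TFE3 (median 1.23), 0 and 2 in TAZ4SA, and 0 and 5 in YAP5SA (median -1.23), beside the same backgrounds. HLA-DMB, which helps load class II molecules, held 7, 17 and 6 counts in EV and 464, 560 and 1102 in YAP-TFE3 (5.75 ± 0.39, edgeR adjusted p = 2.0e-11). CIITA, the master activator of class II genes, was 0.18 in YAP-TFE3, not called, and -0.97 in YAP5SA, called. Among markers of leukocytes, the levels were 0.173, 0.114 and 0.145 CPM in EV and 0.813, 0.565 and 1.62 in YAP-TFE3 for ITGAM (2.76 ± 0.54, edgeR adjusted p = 0.00016), while PTPRC held 1 count in all 3 YAP-TFE3 libraries together. The summed level of the 6 leukocyte genes, ITGAM included, was 1.90 to 2.62 CPM in EV and 2.05 to 3.41 in YAP-TFE3. Those ranges overlapped, so the rise of ITGAM does not stand for the list as a whole. The part of the 6 leukocyte genes in the result was not tested.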

How the data were processed

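RNA was sequenced from 24 SW872 libraries (8 groups of 3; poly(A), stranded TruSeq). The authors deposited raw gene counts, made with bcbio-nextgen against hg38 after bcl2fastq; the study's methods name Salmon and tximport for gene-level counts, and whether these whole-number tables came from them or from aligned reads, and with which strand setting, was not given in the sources used here. Symbols and coordinates came from GENCODE (GRCh38), which held 56104 of the 60279 gene identifiers, and promoters from RefSeq (GRCh38.p14). Genes averaging 5 counts or more per library were fitted in edgeR 4.0.16 (R 4.3.3; TMM, quasi-likelihood F test, all 24 libraries, 1 mean per group), with Benjamini-Hochberg adjustment over 19997 genes and a threshold of 0.05. The test was checked on simulated counts. Alternatives were other scalings and filters, DESeq2 1.42.0, a replicate block, a fit of the compared groups only, and leaving out each library. Values in every library are given for STAT2, IRF9, IRF7, IRF1, B2M, HLA-B and every member called with an absolute log2 fold change of at least 1 anywhere, and up to 8 members per direction are named per comparison. Members and lists were chosen with earlier results of these data known. Deviations of same-numbered libraries from their group means had mean correlations of -0.0257 to 0.189 over the comparisons. Single pairs reached up to 0.366 (replicate 3 of TAZ4SA and YAP5SA). Every pair was over 0.1 in 0 comparisons, so the main fit assumed no pairing. No libraries of the same group agreed within sampling noise. By chi-square per degree of freedom, YAP-TFE3 replicate 3 differed most, at 71.35 and 56.18 from replicates 1 and 2 of its group. Any other pair within a group reached at most 25.95. CPM values are rounded to 3 significant digits, with further decimals for some that would round to a whole number. Some genes of the further lists are counted but not reported here by name.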

Additional observations from a re-analysis of the deposited data

How the results depend on the processing

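No named call changed its direction under any alternative. Of 191 calls of named members, 44 were lost under at least 1 alternative, and 2 under the replicate block (IRF1 in TAZ-CAMTA1 against TAZ4SA and OAS1 in TAZ-CAMTA1 against YAP-TFE3); the block changed no other call of these. The replicate block called 2 members in TAZ-CAMTA1 against EV, and in TAZ4SA against YAP5SA 2, of which 1 lower. Without the filter on low counts, 5 members were called in TAZ-CAMTA1 against EV, all higher, 4 lower in CAMTA1 against EVsub, and 5 in TAZ4SA against YAP5SA, 4 of them lower. With only the groups compared in the fit, 4 were called higher in TAZ-CAMTA1 against EV, 2 lower in YAP-TFE3 against YAP5SA, and 0 higher and 1 lower in TAZ4SA against YAP5SA. Total-count scaling gave 1 member higher in TAZ4SA against EV, 1 higher in YAP5SA against EV, 5 lower in YAP-TFE3 against EV, 1 lower in TAZ-CAMTA1 against TAZ4SA and 4 higher in TAZ-CAMTA1 against YAP-TFE3. Over all 19997 genes, the calls in these directions were 3355, 3134, 5536, 3695 and 5094, in the same order. In TAZ4SA against YAP5SA, RLE size factors called 2 (1 lower), a mean of at least 20 counts 2 (1 lower) and DESeq2 3 (2 lower).

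When each library was left out in turn, calls ranged from 0 to 1 in TAZ-CAMTA1 against EV (0 to 1 higher), from 1 to 5 higher in TAZ4SA against EV, from 2 to 5 lower in YAP-TFE3 against EV and from 1 to 5 higher in YAP5SA against EV. They ranged from 0 to 3 in CAMTA1 against EVsub (0 to 3 lower), from 12 to 21 in EVsub against EV (9 to 18 lower), from 4 to 7 lower in TAZ-CAMTA1 against TAZ4SA, from 2 to 4 lower in YAP-TFE3 against YAP5SA, from 2 to 5 higher in TAZ-CAMTA1 against YAP-TFE3, and from 0 to 2 in TAZ4SA against YAP5SA (0 to 2 higher, 0 to 1 lower). With 2 libraries left in a group, fewer samples stand behind each of these calls. Depth limits RSAD2 and IFI44L, which held few counts in most groups.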
